A study of Mus musculus with 11 samples.

Results

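Lipoxygenases insert oxygen into polyunsaturated fatty acids, and 7 genes of this family, Alox12b, Aloxe3, Alox12, Alox12e, Alox15, Alox8 and Alox5, are described here in mouse skin and skin tumors. They were chosen by symbol, without use of their values, and are 7 of the 24974 genes in the deposited RPKM table (reads per kilobase of gene, scaled to the mapped reads of the library). All 7 passed the minimum of 0.5 mean RPKM set on the 11 libraries, as did 14233 genes in all. The study asked how skin lacking the homeobox gene Dlx3 permits tumors after the carcinogen DMBA. Tumors of DLX3cKO mice (n = 5), skin without tumor of DLX3cKO mice (KO skin, n = 3) and skin of wild-type mice (WT skin, n = 3) were compared. Every animal, wild type included, had been treated on the back with 3 doses of 100 µg DMBA in 200 µl, spaced by 1 week, and tissue was taken at week 31. The Cre driver of the knockout, the deleted part of Dlx3, and the strain, sex and age of the animals are not given in the sources used here. The labels do not say which tumors and skins came from one animal, so p-values measure only the spread between these samples.

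In the upper epidermis, Alox12b oxygenates linoleate held in an acylceramide, a very long ceramide of the barrier, and Aloxe3 converts the hydroperoxide that results. Their product allows the ceramide to be bound to the corneocyte surface, and loss of either gene causes a leaky skin barrier in mice and ichthyosis in people. Alox12e, Alox8 and Alox12 act on arachidonic acid in keratinocytes, Alox12 in platelets as well, and Alox8 is known for its induction in mouse skin by phorbol ester tumor promoters. Alox5 starts leukotriene synthesis in myeloid and mast cells, and Alox15 is found in eosinophils and some macrophages.

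All members but Alox5 lie on one chromosome, in a pair of groups (GENCODE M21 on GRCm38, the assembly also called mm10). The first group holds Aloxe3 (chr11:69125896-69149115, plus strand), Alox12b (chr11:69156989-69169792, plus strand) and Alox8 (chr11:69183932-69197843, minus strand), with 7873 and 14139 bases between neighbors. The second lies 1043613 bases further and holds Alox12 (chr11:70241457-70255353), Alox12e (chr11:70315610-70322628) and Alox15 (chr11:70344152-70352031), all on the minus strand and separated by 60256 and 21523 bases. Alox5 lies apart (chr6:116410077-116461178, minus strand). Dlx3 is on the same chromosome as the 6 clustered genes, 24.8 Mb beyond Alox15. The longest reading frames of the members were 53.3% (Alox12b and Alox15) to 67.4% (Alox12e and Alox15) identical, and in 0 of 21 pairs did the transcripts share a window of 50 bases, the read length, with at most 2 mismatches.

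Promoters of 5 members were in the RefSeq table (GRCm38.p6), from 250 bases before to 50 bases after the start. The promoter of Alox12b (chr11:69156822-69157121, plus strand) is shown because this gene had the largest difference among members between KO and WT skin, that of Alox12e (chr11:70322481-70322780, minus strand) because it was the member called in tumors, and that of Alox5 (chr6:116461129-116461428, minus strand) because it held the single homeodomain core found. Capitals mark matches, on either strand, to TAATT (the core bound by homeodomain proteins such as Dlx3), CACCC (a Klf box) or GGGCGG (a GC box).
Alox12b: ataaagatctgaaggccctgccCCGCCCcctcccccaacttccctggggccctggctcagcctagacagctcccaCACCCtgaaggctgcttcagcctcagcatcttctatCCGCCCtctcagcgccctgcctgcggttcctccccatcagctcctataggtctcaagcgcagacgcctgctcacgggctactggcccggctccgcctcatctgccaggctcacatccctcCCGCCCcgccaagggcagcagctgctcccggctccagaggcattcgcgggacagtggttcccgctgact
Alox12e: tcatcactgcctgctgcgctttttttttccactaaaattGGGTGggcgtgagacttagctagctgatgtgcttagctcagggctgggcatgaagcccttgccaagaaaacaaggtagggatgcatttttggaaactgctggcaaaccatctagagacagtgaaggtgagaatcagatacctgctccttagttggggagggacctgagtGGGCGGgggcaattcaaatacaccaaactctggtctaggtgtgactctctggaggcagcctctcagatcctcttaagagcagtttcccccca
Alox5: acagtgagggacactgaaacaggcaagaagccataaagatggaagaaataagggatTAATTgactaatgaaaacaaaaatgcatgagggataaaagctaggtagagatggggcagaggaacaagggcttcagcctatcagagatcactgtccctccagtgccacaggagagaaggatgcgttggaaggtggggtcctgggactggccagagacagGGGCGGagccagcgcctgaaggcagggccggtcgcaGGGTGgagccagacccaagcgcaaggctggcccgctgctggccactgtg
TAATT was present in 1 of the 5 members' promoters, Alox5, and in 27.0% of all 32851 promoters of this length. CACCC and GGGCGG were present in all 5, against 57.5% and 35.7% of all promoters. TGANTCA, an AP-1 motif held by 7.81% of promoters, and TATAAA, held by 13.6%, were in none of the 5. No matches overlapped. The matches describe letters in these windows and not bound sites.

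The libraries held 29265111 to 75707445 alignments. Dlx3 was at 4.16, 7.61, 7.52, 1.93 and 1.34 RPKM in tumors 1 to 5, at 4.08, 8.88 and 6.72 RPKM in KO skins 1 to 3, and at 49.9, 7.35 and 89.9 RPKM in WT skins 1 to 3. Dlx3 in the library labelled WT skin 2 was therefore no higher than in KO skin 2. Xist, transcribed in females, was above 10 RPKM in tumors 1, 2 and 5, all KO skins and the library labelled WT skin 2, and below 1 RPKM in tumors 3 and 4 and WT skins 1 and 3. Sequencing run and group overlap in part, since all WT skins, KO skins 2 and 3 and tumor 5 were in a first run. Ribosomal precursor Rn45s was highest in tumor 5 (11833 RPKM) and WT skin 1 (10021 RPKM), and between 612 and 3242 RPKM elsewhere. All 6 skeletal muscle genes examined fell in tumors against either skin, beside 6.56% of all genes against KO skins and 12% against WT skins. Their summed levels were 16.0 to 339 RPKM in tumors, 3162 to 7834 RPKM in KO skins and 5762 to 11400.3 RPKM in WT skins. In bulk tissue, fewer cells of a type and less RNA per cell cannot be told apart.

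Alox12b was at 81.9, 67.9, 159, 75.7 and 12.0 RPKM in tumors 1 to 5, at 78.7, 80.4 and 63.7 RPKM in KO skins, and at 7.44, 39.2 and 11.1 RPKM in WT skins. Each KO skin lay above each WT skin, 4 of 5 tumors did as well, and tumor 5 lay among the WT skins. Mean levels were 79.4 ± 52.6 RPKM in tumors, 74.3 ± 9.18 RPKM in KO skins and 19.2 ± 17.4 RPKM in WT skins (SD, n = 5, 3 and 3). Its partner Aloxe3 was at 23.5, 17.4, 30.1, 15.5 and 3.11 RPKM in tumors 1 to 5, at 30.9, 26.8 and 21.4 RPKM in KO skins, and at 4.11, 20.3 and 7.32 RPKM in WT skins. The KO skins again lay above the WT skins, by the least against the library labelled WT skin 2, and tumor 5 was the lowest of all libraries. Alox12b and Aloxe3 were the only members whose KO and WT skins did not overlap (2 of 7), while 11.3% of all tested genes were higher in every KO skin than in any WT skin. Tumors overlapped KO skins and WT skins in all 7 members, beside 19.4% and 16.1% of all genes whose groups did not overlap.

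**Figure D1:**
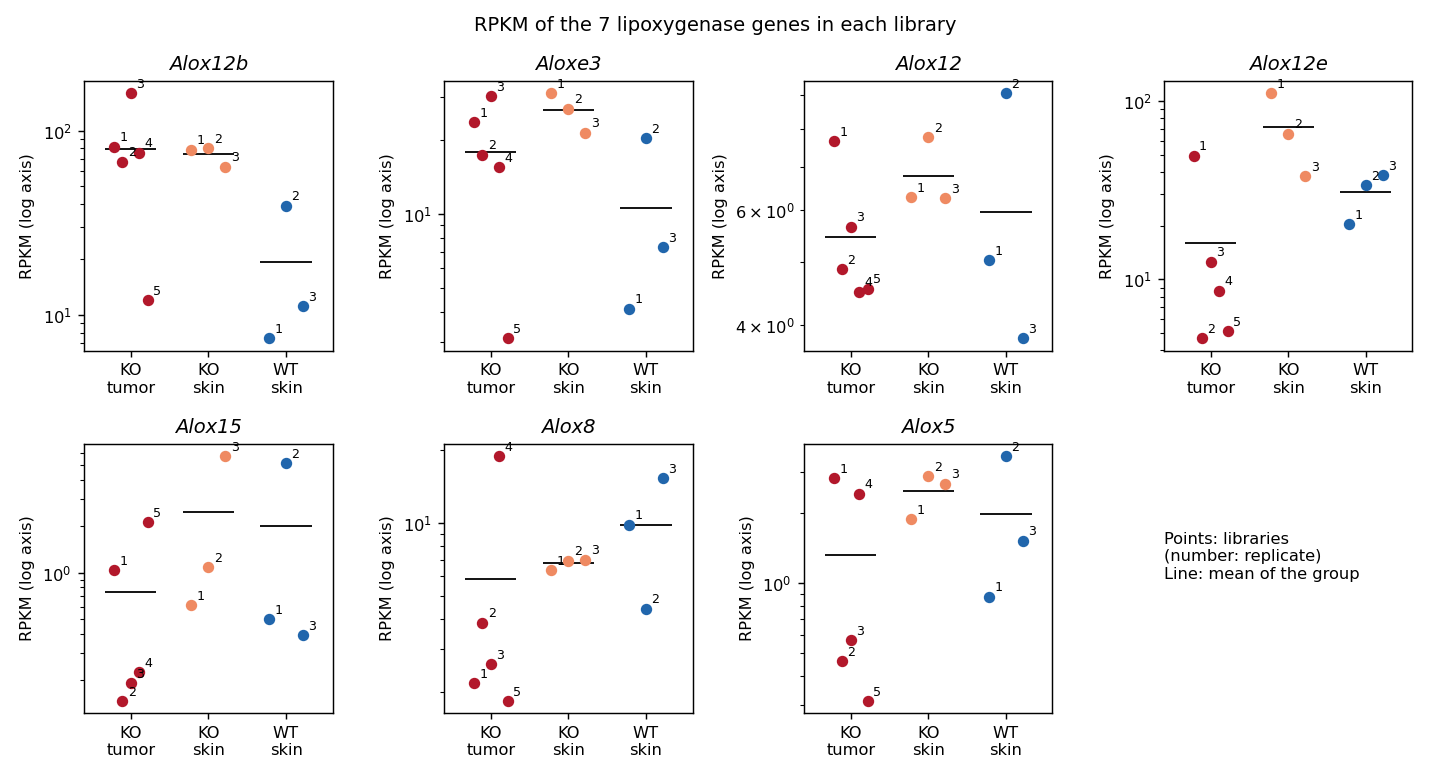
RPKM of the 7 lipoxygenase genes (log axis) in each Dlx3 KO tumor (n = 5), KO skin (n = 3) and WT skin (n = 3), with a point per library and a line at the mean of each group. The KO skins of Alox12b (63.7 to 80.4 RPKM) and Aloxe3 (21.4 to 30.9 RPKM) lie above all WT skins. Tumor 1 of Alox12e (49.3 RPKM) and tumor 4 of Alox8 (18.8 RPKM) lie above the other tumors.

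Neither gene passed the test between KO and WT skin. The log2 fold change, taken on log2(RPKM + 0.5) throughout, was 2.27 ± 0.80 for Alox12b (SE, unadjusted p = 0.0159, limma adjusted p = 0.422) and 1.55 ± 0.72 for Aloxe3 (unadjusted p = 0.0540, limma adjusted p = 0.587). In that comparison 0% of the 14233 genes were called at a limma adjusted p under 0.05, and 8.63% had an unadjusted p under 0.05. With the 7 libraries of high Xist alone, where WT skin is the one library labelled WT skin 2, the difference of Alox12b was 0.91, a value with 1 WT skin that has no replicate check, and without that library it was 2.95 (limma adjusted p = 0.143). Sex as read from Xist and genotype cannot be told apart for the other WT skins.

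Between tumors and WT skin, the difference of Alox12b was 1.99 ± 0.72 on the log2 scale (SE, limma adjusted p = 0.0849) and that of Aloxe3 0.72 ± 0.64 (limma adjusted p = 0.502). Without tumor 5 the Alox12b difference was 2.56 (limma adjusted p = 0.00632), and without the library labelled WT skin 2 it was 2.67 (limma adjusted p = 0.0408). With sequencing run as a term it was 0.69 (limma adjusted p = 0.631). It was -0.30 in the first run by itself, where tumor 5 is the single tumor. Tumors and KO skins differed by -0.28 ± 0.72 for Alox12b (limma adjusted p = 0.837) and by -0.83 ± 0.64 for Aloxe3 (limma adjusted p = 0.444).

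The level of suprabasal epidermis genes in a library moved with these 2 genes in part. The summed level of 10 such genes was 1174 to 33682 RPKM in tumors, with tumor 5 lowest, 25521 to 26768 RPKM in KO skins and 3585 to 45513 RPKM in WT skins, with the library labelled WT skin 2 highest. Gene by gene, 9 of these 10 were higher in KO than in WT skins, beside 56.7% of all genes (median log2 fold change 1.33). Of the 10, 5 were higher in every KO skin than in any WT skin, beside 11.3% of all genes, and 0 were called. In tumors 10 of 10 were lower than in KO skins, where 29.7% of all genes had a positive log2 fold change. Of these 10, 1 fell, beside 6.56% of all genes. Against WT skins 0 were called, beside 15.5% of all genes. Against Krt10, the keratin of these layers, Alox12b stood at 4.98, 9.69, 77.3, 5.34 and 26.0 RPKM per 1000 RPKM of Krt10 in tumors 1 to 5, at 7.68, 7.42 and 5.43 in KO skins and at 4.17, 2.52 and 7.75 in WT skins. On that scale the KO and WT skins overlapped, and tumors 3 and 5, both low in Krt10 (2061 and 463 RPKM), were the highest. The part of epidermal makeup in the differences was not tested.

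The ratio of the pair separated all groups, while the levels separated only KO skins from WT skins. Ratios of other gene pairs were not examined, so this separation cannot be read as particular to the pair. The scaling of a library cancels in the ratio. The ratio of Alox12b to Aloxe3 RPKM was 3.48, 3.91, 5.29, 4.90 and 3.87 in tumors 1 to 5, 2.54, 3.004 and 2.97 in KO skins, and 1.81, 1.93 and 1.52 in WT skins. No library of one group overlapped another group, and in this ratio tumor 5 lay with the tumors and the library labelled WT skin 2 with the WT skins. On the log2 scale, with 0.5 added to each RPKM, the ratio averaged 2.03 ± 0.28 in tumors, 1.48 ± 0.13 in KO skins and 0.76 ± 0.18 in WT skins (SD, n = 5, 3 and 3).

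The log2 ratio was higher by 0.55 in tumors than in KO skins (two-sided exact permutation p = 0.0357, adjusted over 3 comparisons 0.0536). It was higher by 1.27 in tumors than in WT skins (two-sided exact permutation p = 0.0357, adjusted 0.0536) and by 0.72 in KO skins than in WT skins (two-sided exact permutation p = 0.1, adjusted 0.1). Each p is the smallest its design can give, and none passed 0.05 after adjustment. Within the first run the ratio was 3.87 in tumor 5, 3.004 and 2.97 in KO skins 2 and 3, and at most 1.93 in the 3 WT skins. Among libraries of high Xist it was at least 3.48 in tumors 1, 2 and 5 and at least 2.54 in the 3 KO skins. It was 1.93 in the library labelled WT skin 2. The groups did not overlap over all libraries, so any subset keeps their order. These subsets therefore cannot test the part of run or sex in the ratio.

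**Figure D2:**
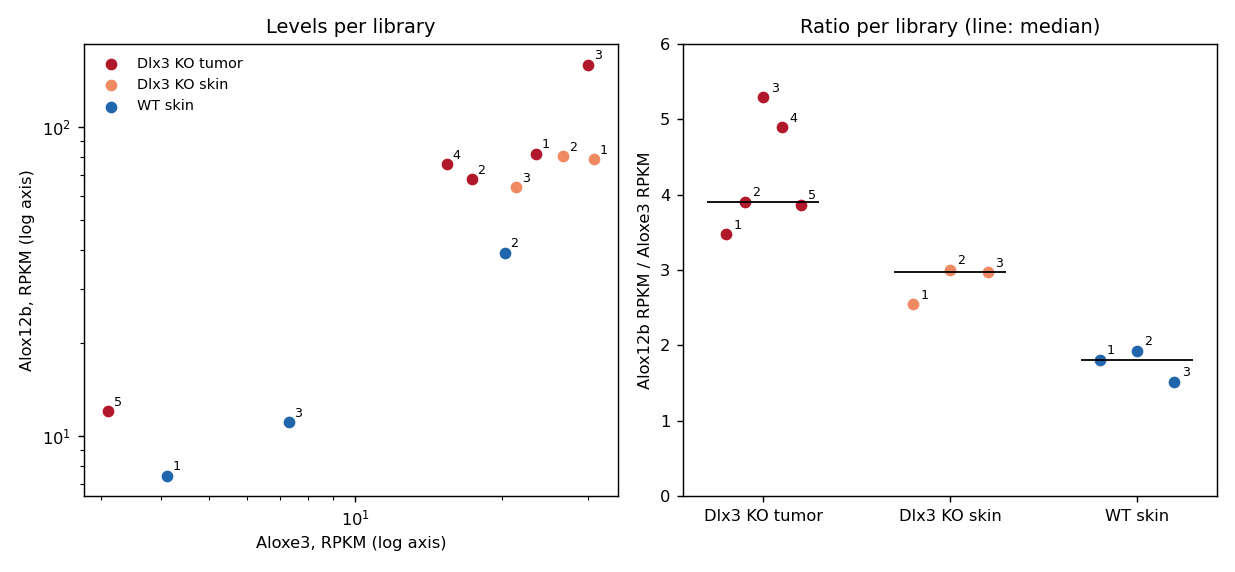
Left, Alox12b against Aloxe3 in RPKM (both log axes), with a numbered point per library. Right, the ratio of the 2 genes per library, with a line at the median of each group: the 5 tumors sit between 3.48 and 5.29, the KO skins between 2.54 and 3.004 and the WT skins between 1.52 and 1.93.

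Alox12e, the epidermal lipoxygenase whose human counterpart is a pseudogene, was the one member called in any comparison. It was at 49.3, 4.67, 12.6, 8.62 and 5.11 RPKM in tumors 1 to 5, at 110.4, 65.4 and 37.9 RPKM in KO skins, and at 20.4, 33.7 and 38.4 RPKM in WT skins. Tumors 2 to 5 were below every skin library, and tumor 1 lay within the range of the KO skins. Alox12e fell in tumors against KO skins, with a log2 fold change of -2.55 ± 0.65 (SE, unadjusted p = 0.00233, limma adjusted p = 0.0386), beside a median of -0.23 over all genes. That made 1 of 7 members called in this comparison, where 7.55% of all tested genes were called and 6.56% were called lower.

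The Alox12e call lay close to the threshold. Its log2 fold change stayed between -3.16 and -2.13 in 25 alternative analyses, with limma adjusted p from 0.000632 to 0.263 and under 0.05 in 10 of them, of which the first run has a single tumor, assumed to vary like the other groups. Leaving out tumor 1 gave -3.09 (limma adjusted p = 0.000632), while leaving out any other single library, WT skins included, put the limma adjusted p between 0.0501 and 0.142. Between tumors and WT skin Alox12e differed by -1.44 ± 0.65 (limma adjusted p = 0.167), or by -1.98 without tumor 1 (limma adjusted p = 0.00610). Between KO and WT skin it differed by 1.11 ± 0.73 (limma adjusted p = 0.725), with overlapping groups. Tumor 1 also had the highest summed levels among tumors of suprabasal genes (33682 RPKM, against 1174 to 29127 RPKM in tumors 2 to 5) and of sebaceous gland genes (223 RPKM, against 11.8 to 131 RPKM), whose part in its Alox12e level was not tested.

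Alox8, the enzyme inducible in mouse skin, was at 2.18, 3.86, 2.60, 18.8 and 1.83 RPKM in tumors 1 to 5, at 6.37, 6.95 and 7.03 RPKM in KO skins, and at 9.80, 4.41 and 15.2 RPKM in WT skins. Tumors 1, 2, 3 and 5 were below all skins, and tumor 4 was above all of them, so that the SD of the tumors (7.30 RPKM) exceeded their mean (5.86 RPKM). Its log2 fold change was -0.73 ± 0.62 in tumors against KO skins (limma adjusted p = 0.482), -1.08 ± 0.62 in tumors against WT skins (limma adjusted p = 0.273; -1.61 and 0.0178 without tumor 4) and -0.35 ± 0.69 in KO against WT skins (limma adjusted p = 0.927).

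Alox12, shared by platelets and epidermis, stayed between 3.81 and 9.07 RPKM in all 11 libraries. It was at 7.66, 4.87, 5.66, 4.495 and 4.55 RPKM in tumors 1 to 5, at 6.29, 7.77 and 6.25 RPKM in KO skins, and at 5.03, 9.07 and 3.81 RPKM in WT skins. The 3 groups overlapped, and the library labelled WT skin 2 was the highest. The log2 fold changes were -0.31 ± 0.27 in tumors against KO skins (limma adjusted p = 0.491), -0.06 ± 0.27 in tumors against WT skins (limma adjusted p = 0.905) and 0.24 ± 0.30 in KO against WT skins (limma adjusted p = 0.865). The summed level of 6 platelet genes, 4 of them tested, was 5.61 to 28.04 RPKM in tumors. It was 21.3 to 40.8 RPKM in KO skins and 35.9 to 64.3 RPKM in WT skins. Most of the sum in skins was Pf4, at 18.6 to 37.9 RPKM in KO skins and 32.99 to 62.1 RPKM in WT skins. In tumor 5, which had the highest sum among tumors, most of it was Ppbp (17.6 RPKM). Mean Itga2b was 1.81, 1.83 and 1.88 RPKM in tumors, KO skins and WT skins, and mean Gp1ba 0.583, 0.812 and 0.682 RPKM. In skins the sum therefore mainly describes Pf4. The platelet receptor Gp6 was under 0.1 RPKM in every library.

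Alox5 was low, at 2.83, 0.463, 0.568, 2.43 and 0.312 RPKM in tumors 1 to 5, at 1.89, 2.88 and 2.68 RPKM in KO skins, and at 0.875, 3.53 and 1.53 RPKM in WT skins. Tumors 1 and 4 matched the skins while tumors 2, 3 and 5 were below every skin library. The log2 fold changes were -0.96 ± 0.51 in tumors against KO skins (limma adjusted p = 0.262), -0.56 ± 0.51 in tumors against WT skins (limma adjusted p = 0.514) and 0.40 ± 0.57 in KO against WT skins (limma adjusted p = 0.892). The summed level of 10 macrophage and dendritic cell genes was 311 and 187 RPKM in tumors 1 and 4. In tumors 2, 3 and 5 it was 77.6 to 90.3 RPKM. It was 349 to 467 RPKM in KO skins and 348 to 420.2 RPKM in WT skins. The 2 tumors with the most Alox5 thus also had the most of these transcripts. For 8 neutrophil genes the sum was instead highest in tumor 2 (7391 RPKM), where Alox5 was low. Nearly all of it there was S100a8 (4090.5 RPKM) and S100a9 (3277 RPKM), so it mainly describes those genes. Cxcr2 was at 17.4, 17.4 and 17.0 RPKM in tumors 2, 3 and 5, and Ly6g was under 0.1 RPKM in every library. The sum of the 8 genes was 3014, 1401, 3978 and 959 RPKM in tumors 1, 3, 4 and 5. It was 768 to 1660 RPKM in KO skins and 28.2 to 219 RPKM in WT skins. Of the macrophage and dendritic cell genes 7 of 10 fell in tumors against KO skins, beside 6.56% of all genes. So did 4 of 6 tested mast cell genes. The 7 listed mast cell genes summed to 8.13 to 72.3 RPKM in tumors, 114 to 184 RPKM in KO skins and 85.0 to 168 RPKM in WT skins. The part of these cell types in the Alox5 level was not tested.

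Alox15 was at or below 2.13 RPKM in 9 of 11 libraries. It was at 1.04, 0.145, 0.190, 0.224 and 2.13 RPKM in tumors 1 to 5, at 0.612, 1.08 and 5.75 RPKM in KO skins, and at 0.495, 5.17 and 0.390 RPKM in WT skins. The single high library of each skin group, KO skin 3 and the library labelled WT skin 2, set the group means. The log2 fold changes were -1.08 ± 0.74 in tumors against KO skins (limma adjusted p = 0.385), -0.70 ± 0.74 in tumors against WT skins (limma adjusted p = 0.579) and 0.38 ± 0.83 in KO against WT skins (limma adjusted p = 0.937). The same 2 libraries were highest in 5 eosinophil genes summed, 2 of them tested. Their sums were 3.64 and 3.86 RPKM, against 0.606 to 1.66 RPKM in the other 9. Siglecf was at 1.50 and 1.21 RPKM in these 2 libraries, while Il5ra was highest in WT skin 1 (0.941 RPKM). The granule gene Epx was under 0.1 RPKM in every library. Tumor 5, the tumor with the most Alox15, had a sum of 1.14 RPKM. The part of eosinophils in the Alox15 level was not tested.

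**Figure D3:**
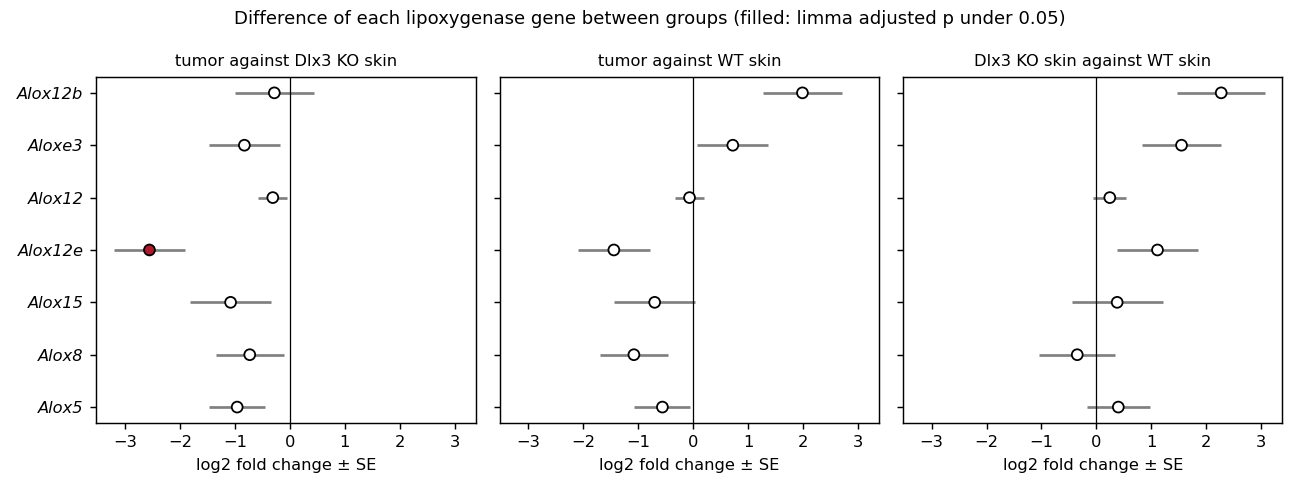
Log2 fold change (points) and SE (bars) of each lipoxygenase gene for tumor against KO skin (n = 5 and 3), tumor against WT skin (n = 5 and 3) and KO skin against WT skin (n = 3 each), with filled points where the limma adjusted p was under 0.05. The single filled point is Alox12e in tumors against KO skins (-2.55).

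All 7 members had a negative log2 fold change in tumors against KO skins, where 29.7% of all tested genes had a positive one. In tumors against WT skins 2 members were higher, beside 38.4% of all genes, and 5 lower, with 0 called, beside 15.5% of all genes called, and 1 of 7 was higher (7.76% of all genes) and 1 lower (21.8%) at an unadjusted p under 0.05. In KO against WT skins 6 were higher and 1 lower, beside 56.7% of all genes with a positive value. The members' median log2 fold change was -0.83 in tumors against KO skins, -0.56 in tumors against WT skins and 0.40 in KO against WT skins, beside -0.23, -0.14 and 0.06 over all genes. The comparisons share libraries, so the 3 sets of values are not independent. Over all tested genes, 142 (0.998%) rose and 933 fell in tumors against KO skins, or 341 and 798 after scaling to median ratios, which moved the median of all genes to 0.02. Against WT skins 506 (3.56%) rose and 1702 (12%) fell in tumors, or 1185 and 1632 after that scaling, with a median of 0.05, and Alox12b then passed (limma adjusted p = 0.0399). The authors' deposited table gives tumor to KO skin ratios of 0.163 for Alox12e (p-value 0.0100, q-value 0.109) and 0.819 for Alox12b (p-value 0.744). For Alox12b the authors' deposited table gives a ratio of 4.96 in KO against WT skin (p-value 0.0409, q-value 0.716).

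The share of each gene in the family's summed RPKM is given without a test, and for Alox12b and Alox12e the ranges of KO skins overlapped those of tumors and of WT skins. The sum over the 7 genes was 168, 99.3, 211, 126 and 29.1 RPKM in tumors 1 to 5, 235, 191 and 145 RPKM in KO skins and 48.2, 115 and 77.8 RPKM in WT skins. Alox12b made up 41.4% to 75.5% of it in tumors, 33.5% to 44.0% in KO skins and 14.3% to 34.0% in WT skins. Alox12e made up 4.70% to 29.3% in tumors, 26.2% to 46.9% in KO skins and 29.2% to 49.4% in WT skins. Aloxe3 held a steadier share of 10.7% to 17.5% in tumors, 13.2% to 14.8% in KO skins and 8.54% to 17.6% in WT skins. Alox8 reached 15.0% in tumor 4, and 20.3% and 19.6% in WT skins 1 and 3.

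Ordered by mean RPKM, which is scaled to gene length, the members ran Alox12b, Aloxe3, Alox12e, Alox8, Alox12, Alox5 and Alox15 in tumors, where of neighbors in this order only Alox12 and Alox5 had ranges that did not overlap. In KO skins the order was Alox12b, Alox12e, Aloxe3, Alox8, Alox12, Alox5 and Alox15, and Alox12e and Aloxe3, Aloxe3 and Alox8, and Alox12 and Alox5 were the neighbors without overlap. In WT skins Alox12e led Alox12b, Aloxe3, Alox8, Alox12, Alox15 and Alox5, and every neighbor pair overlapped. Alox12b was above Aloxe3 in each of the 11 libraries.

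**Figure D4:**
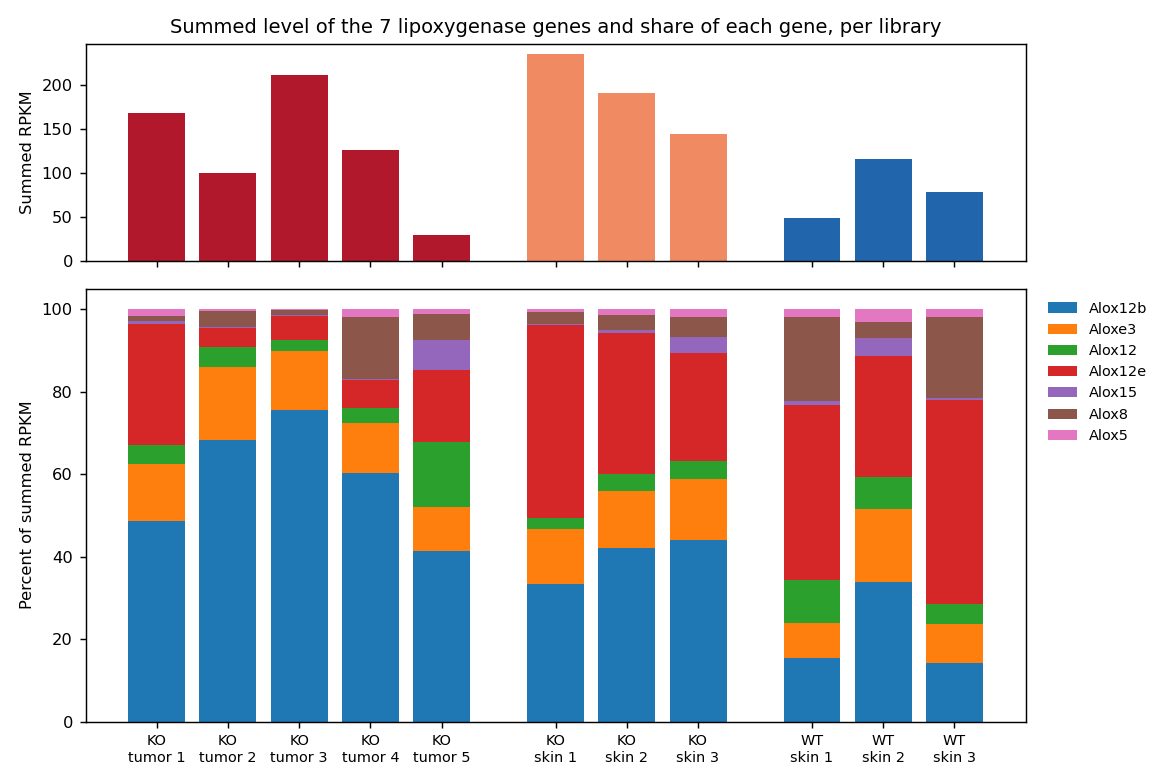
Top, summed RPKM of the 7 lipoxygenase genes in each library of tumor, KO skin and WT skin. Bottom, the percent of that sum held by each gene: Alox12b takes at least 41.4% in every tumor and at most 34.0% in every WT skin.

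The pathway of acylceramide, the substrate of Alox12b, and of its binding to the corneocyte surface was examined as a list of 16 genes, all tested. The list is wider than the enzymes that make and bind acylceramide. It also holds, among others, the epoxide hydrolase Ephx2 and the lipid transporter Abca12. In KO against WT skins 15 of 16 were higher and 0 were called at a limma adjusted p under 0.05, with 7 at an unadjusted p under 0.05 (5.22% of all genes were higher at that level) and a median log2 fold change of 1.07. Of the 16, 11 were higher in every KO skin than in any WT skin, beside 11.3% of all genes. Markers of other skin structures moved as well, without any gene called. Sebaceous gland genes were higher in every KO skin for 6 of 7 (median log2 fold change 1.26, summed levels of 164 to 234 RPKM in KO skins and 51.9 to 115 RPKM in WT skins), and suprabasal genes for 5 of 10. Hair shaft genes were lower in every KO skin for 6 of 10, beside 5.1% of all genes (median -3.28, summed levels of 75.9 to 799 RPKM in KO skins and 724 to 4280 RPKM in WT skins). Their part in the levels of the acylceramide genes was not tested. The fatty acid hydroxylase Cyp4f39 was at 36.9, 40.1 and 36.4 RPKM in KO skins, against 8.63, 16.0 and 13.9 RPKM in WT skins (log2 fold change 1.56, limma adjusted p = 0.356). Sdr9c7, the dehydrogenase that acts on the product of Aloxe3, was at 50.8, 48.7 and 43.1 RPKM in KO skins, against 4.72, 19.3 and 9.24 RPKM in WT skins (log2 fold change 2.26, limma adjusted p = 0.415). Elovl4, which elongates the fatty acid, was at 245, 252 and 209 RPKM in KO skins, against 42.0, 132 and 46.7 RPKM in WT skins (log2 fold change 1.87, limma adjusted p = 0.469). In each of these genes the library labelled WT skin 2 was the closest to the KO skins.

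Of the 16 acylceramide genes, 14 were lower in tumors than in KO skins, with a median of -0.67. Beside 6.56% of all genes, 1 of the 16 fell. That gene was the epoxide hydrolase Ephx2, at 0.819 to 2.50 RPKM in tumors, against 4.15 to 10.3 RPKM in KO skins (log2 fold change -1.93 ± 0.35, limma adjusted p = 0.00714). In tumors against WT skins 15 were higher, with a median of 0.61. Of these Cyp4f39 rose (1.56 ± 0.44, limma adjusted p = 0.0339), while Ephx2 fell (-2.01 ± 0.35, limma adjusted p = 0.00297). That made 1 of 16 called higher and 1 called lower, beside 3.56% and 12% of all genes. The call of Cyp4f39 held in 13 of 25 alternatives, and its difference was -0.014 in the first run alone. Ephx2 was called in 22 of 25 alternatives against KO skins and in 24 of 25 against WT skins.

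**Figure D5:**
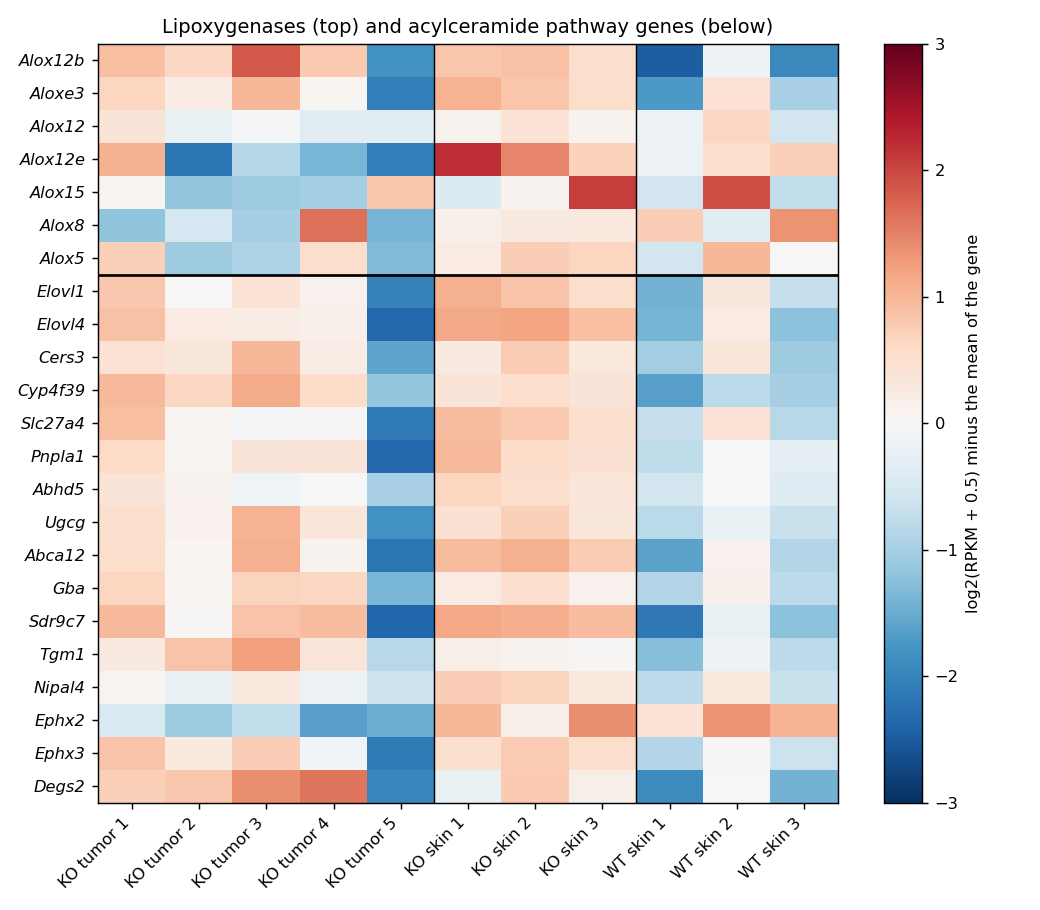
Level of the 7 lipoxygenase genes (top) and the 16 acylceramide pathway genes (below) in each library, tumors left, KO skins in the middle and WT skins right, as log2(RPKM + 0.5) minus the mean of the gene over the 11 libraries. Tumor 5 and WT skins 1 and 3 are low in most acylceramide genes, and the library labelled WT skin 2 is closer to the KO skins.

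Leukotriene genes were a list of 14, of which 12 were tested. The list holds Alox5ap and Cotl1, partners of the Alox5 enzyme, as well as genes downstream of Alox5. In KO against WT skins 0 were called and the median was 0.38. Against KO skins 1 of 12 rose and 2 fell in tumors, beside 0.998% and 6.56% of all genes, with a median of -0.43. Against WT skins 3 rose and 3 fell, beside 3.56% and 12% of all genes, with a median of -0.32. Cotl1, an actin-binding protein known to bind the Alox5 enzyme, rose to 45.5 to 146 RPKM in tumors, against 27.5 to 32.4 RPKM in KO skins (log2 fold change 1.62 ± 0.35, limma adjusted p = 0.0198) and 16.3 to 21.1 RPKM in WT skins (2.35 ± 0.35, limma adjusted p = 0.00110). The peptidases Ggt5 (log2 fold change -1.64, limma adjusted p = 0.0245) and Dpep1 (-2.48, limma adjusted p = 0.0479) fell in tumors against KO skins. Both act in steps after leukotriene C4 is made. Alox5ap, which presents arachidonic acid to Alox5, was at 3.55 to 17.8 RPKM in tumors, against 13.4 to 25.1 RPKM in KO skins (-1.38, limma adjusted p = 0.0785).

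Phospholipases A2, which release fatty acids for lipoxygenases, were a list of 15, of which 13 were tested. In KO against WT skins 0 were called, with a median of 0.51, and the epidermal Pla2g2f was at 241, 217 and 222 RPKM in KO skins, against 38.1, 128 and 66.0 RPKM in WT skins (log2 fold change 1.72, limma adjusted p = 0.629). Against KO skins 1 of 13 rose and 3 fell in tumors, beside 0.998% and 6.56% of all genes, with a median of -1.01, beside -0.23 over all genes. Pla2g4d rose, at 0.554 to 13.0 RPKM in tumors, against 0.341 to 0.504 RPKM in KO skins (2.49 ± 0.66, limma adjusted p = 0.0437), and was also higher than in WT skins (2.997 ± 0.66, limma adjusted p = 0.0114). Pla2g16 (-2.15, limma adjusted p = 0.00370), Pla2g12a (-1.03, limma adjusted p = 0.0210) and Pla2g2d (-1.25, limma adjusted p = 0.0340) fell. Pla2g16 is abundant in fat cells, and 5 of 6 adipocyte genes fell in the same comparison, beside 6.56% of all genes. Their summed levels were 374 to 2990.5 RPKM in tumors and 1211 to 2440 RPKM in KO skins, and their part was not tested.

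Of 10 genes for receptors of lipoxygenase products and for lipid peroxide reduction, 6 were tested. Between KO and WT skins 0 were called, and 2 of 6 fell in tumors against KO skins, beside 6.56% of all genes. Gpx4, which reduces lipid hydroperoxides, was at 64.6 to 76.5 RPKM in tumors, against 118 to 132 RPKM in KO skins (log2 fold change -0.82 ± 0.17, limma adjusted p = 0.0129) and 107 to 148 RPKM in WT skins (-0.80 ± 0.17, limma adjusted p = 0.00828). The receptor gene Cmklr1 fell too (-1.40, limma adjusted p = 0.0417). The fatty acid receptor Ppard rose in tumors against WT skins, at 16.3 to 59.2 RPKM in tumors, against 7.55 to 17.5 RPKM in WT skins (1.55 ± 0.39, limma adjusted p = 0.0211). 

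Single libraries decided many of these calls. With one library left out at a time, the call of Pla2g16 in tumors against KO skins was kept in 11 of 11 cases, and that of Ephx2 was lost without KO skin 3. Those of Cotl1, Pla2g12a and Gpx4 were lost without any one KO skin, those of Ggt5 and Pla2g2d also without tumor 2 or 3, and that of Pla2g2d without tumor 5 too. Cmklr1 lost its call without any of tumors 2 to 5, KO skins 2 and 3 and WT skin 3, Dpep1 without any library but tumor 1, and Pla2g4d without any but tumors 1 and 5. Against WT skins the calls of Ephx2, Cotl1 and Gpx4 were kept in 11 of 11 cases, that of Pla2g4d was lost without WT skin 3, that of Ppard without tumor 2, WT skin 1 or WT skin 3, and that of Cyp4f39 without tumors 2, 3 or 4, KO skin 2 or any WT skin.

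Likeness of pattern was measured by Pearson's r of log2(RPKM + 0.5) over the 11 libraries, which share groups, run and depth differences, so that r is given as a description. Alox12b and Aloxe3 had r = 0.924 with each other. The 5 genes most like Alox12b were Myo5b (r = 0.981), Tmem79 (0.972), Atp6v1b2 (0.969), Nkpd1 (0.967) and Wfdc5 (0.964). The 5 most like Aloxe3 were Epn3 (0.991), Abca12 (0.987), Elovl1 (0.977), Sptlc1 (0.976) and Spire2 (0.973), of which Abca12 is the lipid transporter of lamellar granules. Alox12e was most like Clca3a1 (0.985), Skint9 (0.974) and Egr2 (0.970), and had r = 0.154 with Alox12b. Alox5 was most like Mamdc2 (0.979), Tspan4 (0.961) and Vmac (0.960). Alox12 (Barx2, 0.925), Alox8 (Gfra1, 0.901) and Alox15 (H2-Q10, 0.877) had lower best values, and Alox8 had r = -0.229 with Alox12b.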

How the data were processed

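Total RNA of mouse skin and tumors was depleted of ribosomal RNA and read as single reads of 50 bases, per the labels' protocols. Reads were handled with bcl2fastq 2.20.0.422, TopHat2 2.1.1, Bowtie and Partek and the build mm10, per the submitters' processing notes. The RPKM values were made by the authors per gene, per the file headers. The authors' deposited table also gives group means on a log2 scale, a ratio, a p-value and a q-value per comparison, and a signed fold value (a score with no value between -1 and 1). The alignment count of each library is from the deposited sample sheet, per the file headers.

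Values were analysed as log2(RPKM + 0.5). A minimum mean of 0.5 RPKM kept 14233 of 24974 genes, which were fitted over all 3 groups with limma 3.58.1 in R 4.3.3 (trend and robust, 8 residual degrees of freedom). Two-sided p-values had the Benjamini-Hochberg adjustment over all tested genes of a comparison, and the threshold for a call was 0.05. RPKM are shares of a library, so abundant genes move all others. Read depth behind a single gene was not analysed here, and the spread between libraries stands for precision. The fit was tested on simulated data. The ratio of Alox12b to Aloxe3 was tested by exact permutation (scipy 1.17.1, Python 3.11.15). Members, gene lists, tests and the 25 alternatives were chosen with earlier results of these data known. Genes were named by rule: all members, per pathway list and comparison up to 4 genes of smallest p, Dlx3 and Krt10, and per member the 3 (5 for Alox12b and Aloxe3) genes of largest Pearson r. Not every gene the rule allows is printed, and genes of the marker lists and Xist and Rn45s are given as checks of the libraries.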

Additional observations from a re-analysis of the deposited data

Results flagged for a closer look

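The level of each member and the ratio of Alox12b to Aloxe3, 8 values, were examined for a tumor standing apart. In 2 of them, both levels in RPKM, a tumor did so. Chance gives about 1 in 20 for normally distributed values. Whether RPKM values are so distributed was not tested, and the gaps on the log2 scale were not examined. The 2 flags therefore cannot be set against chance. Alox12e was at 49.3 RPKM in tumor 1, where the next tumor was at 12.6 RPKM, so that this gap took 0.823 of the range of the 5 tumors (limit 0.71). Alox8 was at 18.8 RPKM in tumor 4, where the next tumor was at 3.86 RPKM, a gap of 0.88 of the range. The effect of leaving out each of these tumors is given with the levels above.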

How the results depend on the processing

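Over 525 results of the members under 25 alternatives per comparison, and those of the other named genes, these changed direction. In KO against WT skins, Alox15 was -0.014 without the 2 libraries highest in Rn45s and, with libraries of high Xist alone, -1.35, where Alox12 was -0.40, Alox8 0.57, Alox5 -0.45 and Mgst2 -0.079. Leaving out single libraries gave Alox15 -0.37 to 1.24, Alox12 -0.0078 to 0.57 and Alox8 -0.81 to 0.033. In tumors against KO skins, Alox12 was 0.028 after quantile normalization, and Alox12b was 0.060 with library weights, 0.38 with the replicate block, 0.29 without the 2 libraries highest in Rn45s and -0.63 to 0.29 with single libraries left out. In tumors against WT skins, Alox12 was 0.13 with median-ratio scaling, 0.22 with quantile normalization, 0.081 with the replicate block and -0.32 to 0.26 with single libraries left out. With run as a term Aloxe3 was -0.53 and Alox15 0.56. In the first run alone Alox12b was -0.30, Aloxe3 -1.33, Alox15 0.62, Cyp4f39 -0.014, Tgm1 -0.086 and Degs2 -0.83, and with high Xist alone Aloxe3 was -0.84 and Degs2 -0.12. Leaving out single libraries gave Alox15 -1.17 to 0.16.

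The limma calls over all genes in KO against WT skins were 0, with 2 under library weights, 4 with high Xist alone and 0 to 229 with a library left out, and 0 members were called throughout. In tumors against KO skins they were 1075, with 5969 under library weights, 1627 in the first run alone, 681 without the Rn45s-high libraries, 272 with high Xist alone and 347 to 2867 with a library left out. The 1 member called there became 0 without the filter, with the compared groups alone, without the Rn45s-high libraries and with high Xist alone, 3 with library weights (Alox12e, Alox15 and Alox5), and 0 to 1 with a library left out. In tumors against WT skins they were 2208, with 705 with run as a term, 192 with high Xist alone and 1308 to 3284 with a library left out. The members called there, 0, became 1 with median-ratio scaling, quantile normalization, library weights and without the Rn45s-high libraries (Alox12b), 1 in the first run alone (Alox12e, with a single tumor assumed to vary like the other groups), and 0 to 1 with a library left out. Quantile normalization split the calls into 487 higher and 634 lower in tumors against KO skins and into 1461 and 1373 against WT skins. The log2 ratio of Alox12b to Aloxe3 differed in the first run alone, with 1 tumor and no test, by 0.24 in tumors against KO skins and by 1.03 in tumors against WT skins, and with a library left out by 0.46 to 0.61, by 1.17 to 1.35 and, in KO against WT skins, by 0.63 to 0.81. The cause of these changes was not tested.

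The correlation of deviations of same-numbered libraries ran from -0.406 to 0.185. With so few libraries of unlike tissues, these values cannot show whether replicate numbers pair samples of one animal. Tumor 3 and KO skin 3 differed in Xist (0.616 and 14.6 RPKM), so that number did not pair them. With the replicate block over the numbers shared, 357 genes were called in tumors against KO skins with 0 members, and 986 in tumors against WT skins with 1 member (Alox12b, limma adjusted p = 0.0320).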
